A study of Mus musculus with 2 samples.

Results

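The 9 genes described here make, store, take back and break down the catecholamines dopamine, noradrenaline and adrenaline: Th, Ddc, Dbh, Pnmt, Slc18a1, Slc18a2, Slc6a2, Maoa and Maob. They were chosen by symbol among the 55536 genes of the deposited gene tables. Their levels were not a criterion, though earlier results of these data were known. Total RNA was measured in adrenal gland tissue of male B6CASTF1/J mice aged 2 months, the F1 hybrid of C57BL/6J and a CAST strain, with no treatment or engineered allele named in the labels. There was 1 group of 2 libraries, biological replicates 1 and 2, each from 300 ng of RNA depleted of ribosomal RNA and made into a library with a directional kit, with synthetic ERCC RNAs added. The sample descriptions number the animals differently, but the library descriptions and the donor field give both libraries the same animal, so the spread between them may not be a spread between animals. No condition was compared, and every difference below is between 1 library and 1 library, with no p-value.

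Catecholamines are made from tyrosine in steps. Th, the rate-limiting enzyme, makes DOPA, Ddc turns DOPA into dopamine, Dbh turns dopamine into noradrenaline inside the storage vesicle, and Pnmt methylates noradrenaline to adrenaline in the cytosol. The vesicle carriers Slc18a1 and Slc18a2 load the amines, Slc6a2 returns noradrenaline across the plasma membrane, and the mitochondrial enzymes Maoa and Maob oxidise the amines. In the adrenal gland this pathway belongs to the chromaffin cells of the medulla, around which lies a cortex that makes steroids.

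Sequencing depth was alike, at 36512736 expected counts for replicate 1 and 34454892 for replicate 2. All 12 chromaffin markers and all 8 cortex markers reached a TPM (a level per transcript length, scaled to the same total in each library) of 1 or more in both libraries. The chromaffin markers summed to 2191 and 1915 TPM, the cortex markers to 14338 and 15931 TPM and the 7 fat markers to 1899 and 1095 TPM. The 7 mast cell markers summed to 3.52 and 3.49 TPM, and none reached 1 TPM in both libraries. Among 5 markers of ganglion neurons, which also hold Th and Dbh, the neuronal filament gene Prph had 16 and 12 counts. Gal, which chromaffin cells can also express, held most of the summed 40.9 and 32.9 TPM of that list.

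All 9 genes were detected in both libraries, from 657 counts for Maob in replicate 2 to 26556 counts for Th in replicate 1. Together they held 828 TPM in replicate 1 and 721 TPM in replicate 2, of which the 4 synthesis enzymes made up 94.0% and 93.7%. By mean alignment-based TPM the order was Th, Dbh, Pnmt, Ddc, Maoa, Slc18a1, Maob, Slc18a2 and Slc6a2. Between neighbours in this order the ranges of the 2 libraries overlapped for Dbh and Pnmt and for Slc18a1 and Maob, and for no other pair. Ddc was thus below the enzymes before and after it in the pathway, and every carrier and oxidase was lower still.

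**Figure D1:**
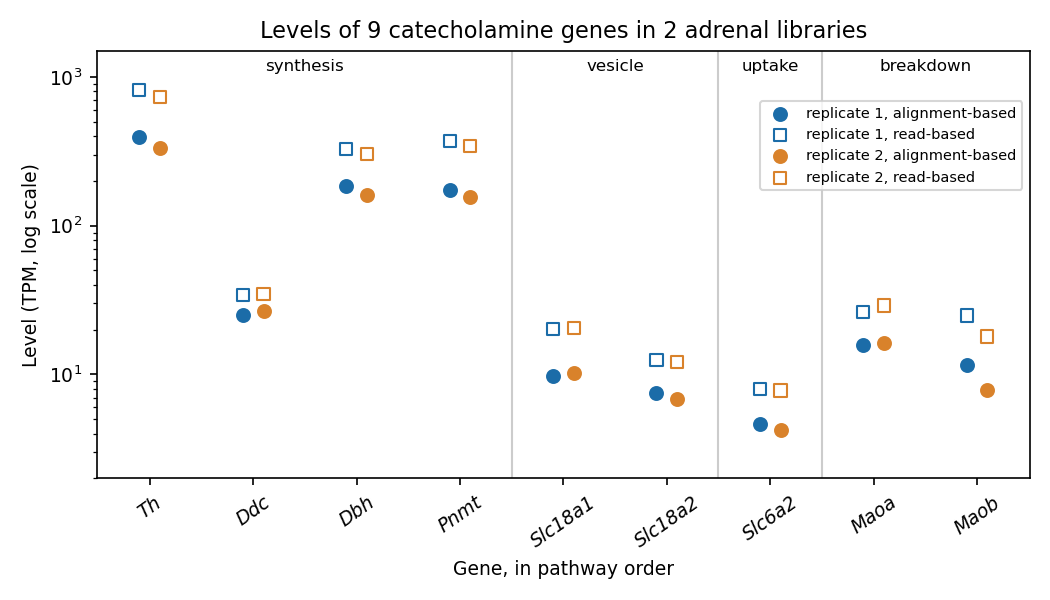
Level of each gene in TPM on a log scale, in pathway order, for replicate 1 (blue) and replicate 2 (orange); filled circles are alignment-based values and open squares read-based values. Th is highest in both tables, at 395 and 334 TPM in the alignment-based table, and Slc6a2 lowest, at 4.63 and 4.25 TPM.

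Th, tyrosine hydroxylase (ENSMUSG00000000214.11, chr7:142892752-142931128, minus strand, GRCm38), had 26556 and 20881 counts. Its level was 395 TPM in replicate 1 and 334 TPM in replicate 2, and by mean TPM it ranked 76 among 21938 protein-coding genes outside the mitochondrial chromosome. The bases just upstream of its main annotated start, that of the transcript Th-201, are shown because they hold TGACGTCA, the cyclic AMP response element. They come from RefSeq on GRCm38.p6, 5′ to 3′, with the element in capitals.

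Th (chr7:142900015-142900245, minus strand): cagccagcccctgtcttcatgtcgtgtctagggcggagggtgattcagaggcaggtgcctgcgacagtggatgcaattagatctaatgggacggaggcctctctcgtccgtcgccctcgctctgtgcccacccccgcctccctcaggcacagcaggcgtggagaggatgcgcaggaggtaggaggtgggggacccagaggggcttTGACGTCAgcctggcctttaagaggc

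The first base of the element lay 26 bases upstream of the Th-201 start. Relative to the RefSeq start, which lies 19 bases from that of Th-201, it was at position -45. Among 32851 RefSeq windows of 300 bases around gene starts, 588 (1.79%) held TGACGTCA. A match is a description of the sequence and does not show binding, which was not measured.

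Ddc, aromatic L-amino acid decarboxylase (ENSMUSG00000020182.16, chr11:11814101-11898144, minus strand), had 1512 and 1410 counts and levels of 25.0 and 26.6 TPM. It was the lowest of the 4 synthesis enzymes in both libraries, and Th stood 15.8-fold and 12.5-fold above it. The Ddc to Th ratio was 0.0634 in replicate 1, with a 95% counting interval from 0.0601 to 0.0668, and 0.0797 in replicate 2, with an interval from 0.0755 to 0.0842. These intervals, exact Clopper-Pearson intervals that cover counting error only, did not overlap. The second set of deposited tables, quantified from the reads rather than from alignments and called read-based here, gave lower ratios of 0.0417 and 0.0476.

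Dbh, dopamine beta-hydroxylase (ENSMUSG00000000889.8, chr2:27165233-27183200, plus strand), had 17499 and 14251 counts and levels of 184 and 161 TPM. Pnmt, phenylethanolamine N-methyltransferase (ENSMUSG00000038216.7, chr11:98386450-98388181, plus strand), had 7113 and 5893 counts and levels of 174 and 155 TPM. Both were higher in replicate 1, and the range of Pnmt over the libraries overlapped that of Dbh.

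The ratio of Pnmt to Th was 0.440 in replicate 1 (counting interval 0.429 to 0.452) and 0.464 in replicate 2 (0.451 to 0.478). The intervals overlapped, and the read-based ratios were 0.452 and 0.472, so this ratio moved little with the library or the table. The ratio of Dbh to Th was 0.466 and 0.481, with overlapping intervals, and 0.404 and 0.414 in the read-based tables.

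Which of Dbh and Pnmt was higher depended on the table. The alignment-based ratio of Pnmt to Dbh was 0.944 (0.918 to 0.971) and 0.965 (0.936 to 0.994), below 1 in both libraries. The read-based ratio was 1.12 (1.09 to 1.15) and 1.14 (1.11 to 1.17), above 1 in both. Both kinds of table quantify the same reads, so the counting intervals do not measure the gap between the tables. The order of these genes was not settled by these data.

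**Figure D2:**
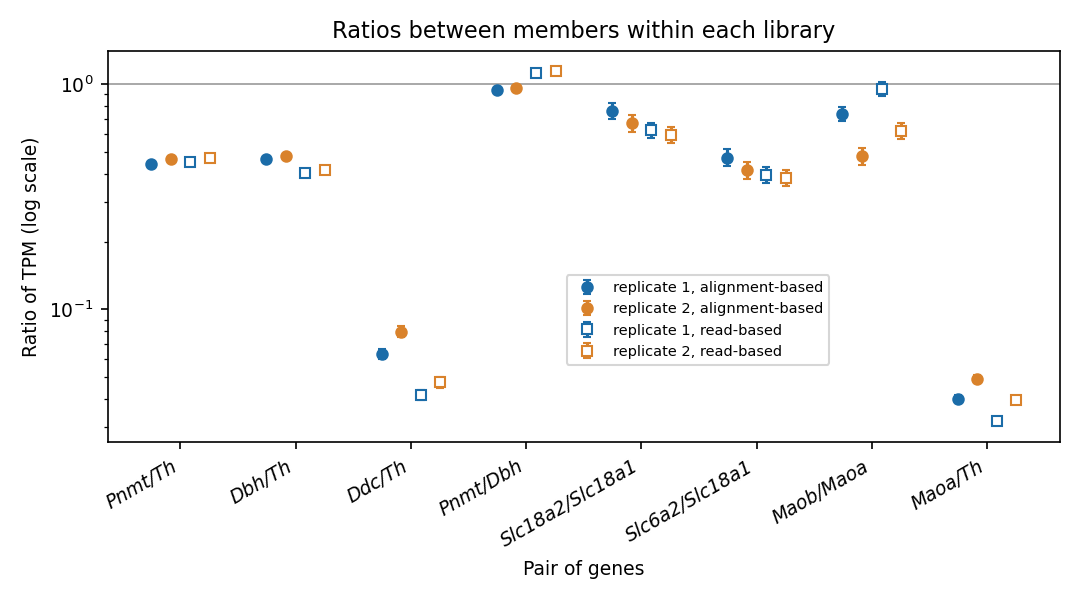
Ratios of TPM between pairs of genes within each library, on a log scale, with 95% counting intervals; circles are alignment-based and open squares read-based values, blue for replicate 1 and orange for replicate 2. Pnmt/Th lies between 0.440 and 0.472 in all 4 values, while Pnmt/Dbh falls below 1 in the alignment-based and above 1 in the read-based tables.

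The vesicle carriers were lower than all 4 synthesis enzymes, and nearest to Ddc. Slc18a1, the vesicular monoamine transporter VMAT1 known from endocrine cells (ENSMUSG00000036330.12, chr8:69037711-69089235, minus strand), had 1118 and 1082 counts and levels of 9.81 and 10.3 TPM. Slc18a2, the carrier VMAT2 known from neurons and also from chromaffin cells (ENSMUSG00000025094.8, chr19:59260896-59296012, plus strand), had 1078 and 921 counts and levels of 7.46 and 6.86 TPM. Slc18a1 was the higher of the carriers in both libraries and in both tables.

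The ratio of Slc18a2 to Slc18a1 was 0.760 (0.699 to 0.828) in replicate 1 and 0.669 (0.612 to 0.731) in replicate 2, with overlapping intervals. The read-based values were 0.623 and 0.593. At its 5′ end Slc18a1 overlaps Atp6v1b2, a proton pump subunit gene on the opposite strand with 4640 and 4219 counts, over 590 bases. The kit keeps strand, but whether counting used it is not given in the sources used here, so reads in that stretch may be shared.

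The bases upstream of Slc18a2 are shown because they also hold TGACGTCA, in capitals, from the same RefSeq table.

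Slc18a2 (chr19:59260628-59260895, plus strand): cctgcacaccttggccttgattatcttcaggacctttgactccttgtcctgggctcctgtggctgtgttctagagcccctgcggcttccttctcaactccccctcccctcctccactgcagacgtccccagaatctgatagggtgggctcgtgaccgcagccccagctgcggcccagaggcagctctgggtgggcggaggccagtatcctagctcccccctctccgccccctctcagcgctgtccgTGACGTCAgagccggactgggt

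The first base of the element lay 22 bases upstream of the Slc18a2-201 start. Relative to the RefSeq start, which lies 18 bases from that of Slc18a2-201, it was at position -4. By RefSeq the element thus spans the start, and the printed bases run past it. RefSeq windows were matched for 5 of the 9 genes, Th, Ddc, Dbh, Slc18a2 and Maoa, with a pair of windows for Ddc, and were not matched for Pnmt, Slc18a1, Slc6a2 and Maob. Of these 6 windows, 2 held TGACGTCA. The shorter TGACG, which lies inside TGACGTCA, was in 4 of 6 windows against 20.8% of all windows. TATAAA was in 1 of 6 against 13.6%, and GGGCGG in 3 of 6 against 35.7%, all searched on both strands.

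Slc6a2, the noradrenaline transporter (ENSMUSG00000055368.14, chr8:92960079-93001667, plus strand), was the lowest of the 9 genes. It had 1067 and 915 counts and levels of 4.63 and 4.25 TPM, and the values of the libraries lay close together. Its ratio to Slc18a1 was 0.472 (0.434 to 0.514) in replicate 1 and 0.415 (0.379 to 0.453) in replicate 2.

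The oxidases lie next to each other on the X chromosome, with their 3′ ends facing across 21463 bases. Maoa, which prefers serotonin and noradrenaline (ENSMUSG00000025037.6, chrX:16619698-16687818, plus strand), had 2491 and 2414 counts and levels of 15.8 and 16.4 TPM. Maob, which prefers phenylethylamine (ENSMUSG00000040147.14, chrX:16709282-16817366, minus strand), had 1043 and 657 counts and levels of 11.6 and 7.85 TPM. Maoa was nearly level between the libraries, while Maob had the widest relative spread of the 9 genes, at 9.73 ± 2.66 TPM (SD, n = 2).

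The ratio of Maob to Maoa was therefore 0.737 (0.685 to 0.792) in replicate 1 and 0.479 (0.438 to 0.522) in replicate 2, and the intervals did not overlap. The read-based tables gave higher ratios, 0.951 and 0.618, and in both tables the value of replicate 2 was 0.65 times that of replicate 1. The ratio of Maoa to Th was 0.0399 (0.0383 to 0.0416) in replicate 1 and 0.0492 (0.0471 to 0.0513) in replicate 2, also without overlap.

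Set against each other with TMM scaling, which balances libraries over all genes, replicate 2 was below replicate 1 for 9 of 9 genes and above it for 0. Across the 12430 genes that averaged at least 100 counts, 51.8% were below and 48.2% above. For 6 of 9 the counting interval of the log2 ratio lay wholly below 0 (all genes 20.3%) and for none above 0 (18.5%). The ratio exceeded 1.2-fold lower for 4 genes, Th, Dbh, Pnmt and Maob (10.3%), and 1.5-fold lower for Maob alone (1.42%). None of the 9 was over 1.2-fold higher (7.5%) or 1.5-fold higher (1.24%). Their log2 ratios had a median of -0.22, against -0.0070 for all 12430 genes. The counts depended on the scaling. With the ratio of TPM, 6 genes were below 0 (all genes 32.2%), 4 had an interval below 0 (12.7%) as Slc18a2 and Slc6a2 no longer did, and over 1.2-fold lower there remained 1, Maob (7.2%). With total counts 2 were over 1.2-fold lower, Th and Maob (6.5%). Under both of these scalings none was over 1.5-fold lower (all genes 1.14% with the ratio of TPM and 0.941% with total counts). Read-based counts gave 7 genes with an interval below 0, Ddc among them (23.4%).

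The log2 ratio was -0.34 for Th, -0.29 for Dbh and -0.26 for Pnmt, and Maob stood lowest at -0.66 (counting interval -0.80 to -0.52). Slc18a2 at -0.22 and Slc6a2 at -0.21 also had intervals below 0. Ddc at -0.093 (-0.20 to 0.012), Slc18a1 at -0.040 (-0.16 to 0.082) and Maoa at -0.038 (-0.12 to 0.044) had intervals that included 0. Scaling decided the sign of Slc18a1 and Maoa, which were at 0.063 and 0.057 with the ratio of TPM and also above 0 with total counts. Ddc was above 0 only with the ratio of TPM, at 0.087, and was at -0.017 with total counts. TPM also depends on the transcript lengths assigned to a gene, and their part in the Ddc value was not tested. The ratio of TPM moved the median of all genes to 0.084 and total counts moved it to 0.069. The other 6 genes were below 0 under each scaling tried, which for Slc18a2 and Slc6a2 meant -0.12 with the ratio of TPM, with intervals that included 0.

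Marker lists of chromaffin cells and of other cell types differed between the same libraries. Of all 12430 genes, 20.3% were lower and 18.5% higher beyond counting error, with an interval on 1 side of 0. The 12 chromaffin markers had a median log2 ratio of -0.29 and were all below 0, 11 of them beyond counting error. Of the 5 ganglion neuron markers, 4 had a mean of 100 or more counts. These 4 had a median of -0.38, all below 0 and 2 beyond counting error. Gal was at -0.45 and Isl1 at -0.90, and with the ratio of TPM each was at -0.36. The 7 fat markers had a median of -1.0 and were all lower beyond counting error, and the 3 red cell genes had a median of -0.76. The 4 endothelial markers had a median of 0.065. The 5 Schwann cell markers summed to 10.2 and 6.42 TPM, the 5 kidney tubule markers to 1.91 and 5.16 TPM and the 3 liver markers to 1.68 and 7.02 TPM. The 8 cortex markers had a median of 0.11, with 5 higher and 2 lower beyond counting error. With the ratio of TPM the medians were -0.21 for chromaffin, -0.18 for ganglion neuron, -0.91 for fat and -0.67 for red cell markers. They were 0.12 for endothelial and 0.20 for cortex markers, against 0.084 for all genes. The part of these lists in the ratios of the 9 genes was not tested. In RNA of bulk tissue, fewer chromaffin cells and less RNA of these genes per cell cannot be told apart.

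**Figure D3:**
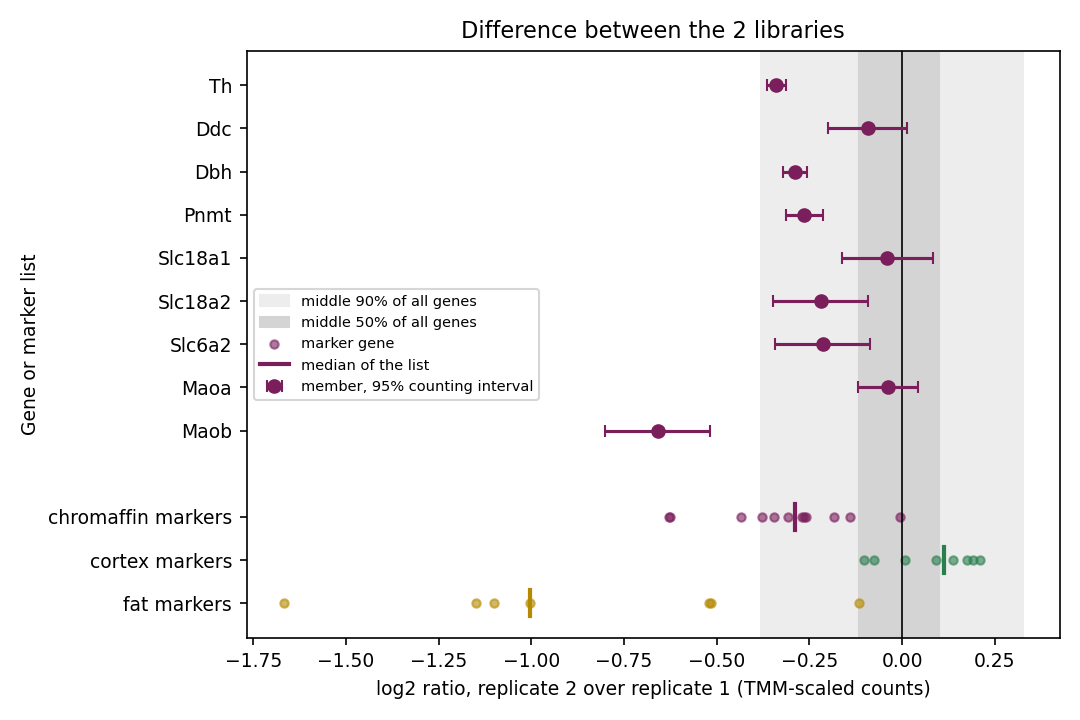
Log2 ratio of replicate 2 over replicate 1 for the 9 genes, with 95% counting intervals, and for single markers of chromaffin cells, cortex and fat, with each list's median as a vertical bar; grey bands mark the middle 50% and the middle 90% of 12430 genes. All 9 genes lie left of 0, Maob at -0.66, and the medians are -0.29 for chromaffin, 0.11 for cortex and -1.0 for fat markers.

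The annotation gives the 9 genes 34 transcripts, and 8 of the 9 genes have more than 1. In the alignment-based tables the leading transcript held over 90% of the gene's TPM for 6 of these 8, and in the read-based tables for 3 of 8. The tables named the same leading transcript for 6 of 8 genes and differed for Ddc and Slc6a2. These counts were not made over all genes with several transcripts, so whether they are usual for these tables is not known.

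The tables disagreed over where Ddc starts. In the alignment-based tables, transcripts that begin at the downstream start, Ddc-202, Ddc-204, Ddc-208 and Ddc-209, held 98.9% of Ddc TPM in replicate 1 and 95.0% in replicate 2. Ddc-202 alone held 72.7% and 64.7%, and Ddc-209, a shorter model, 23.9% and 28.4%. In the read-based tables the same group held 5.91% and 4.82%, while Ddc-210, whose start lies 7736 bases upstream, held 92.5% and 93.6%. Ddc-210 had 0 alignment-based counts in both libraries, with a deposited posterior SD of 17.9 and 18.8 counts.

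Ddc-202 and Ddc-210 have the same coding region of 1440 bases and begin with different first exons, of 71 and 133 bases. In Ddc-202, 7 bases belong to no other Ddc transcript, and in Ddc-210, 100 bases. Within each table the libraries gave nearly the same split between the starts. Ddc is known in mammals to use different first exons in neural and other tissues. The sequences upstream of the annotated starts are given because the tables place nearly all of Ddc behind a different one of them. They come from RefSeq on GRCm38.p6, 5′ to 3′, and capitals mark TTTATA, the opposite strand of TATAAA.

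Ddc, upstream start (chr11:11898145-11898394, minus strand): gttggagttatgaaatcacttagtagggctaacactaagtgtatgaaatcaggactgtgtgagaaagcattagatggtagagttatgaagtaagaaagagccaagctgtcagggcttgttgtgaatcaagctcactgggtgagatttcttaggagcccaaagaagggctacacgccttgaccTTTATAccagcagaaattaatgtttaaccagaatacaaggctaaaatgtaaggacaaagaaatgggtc
Ddc, downstream start (chr11:11890409-11890658, minus strand): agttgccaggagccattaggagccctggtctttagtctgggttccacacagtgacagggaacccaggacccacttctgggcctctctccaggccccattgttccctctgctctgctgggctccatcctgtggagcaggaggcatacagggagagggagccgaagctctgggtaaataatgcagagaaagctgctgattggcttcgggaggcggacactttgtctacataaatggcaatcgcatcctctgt

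The match lay 68 bases upstream of the Ddc-210 start, and the downstream sequence held none of the motifs searched. Absence of a motif says only that these letters are not in this window.

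Slc6a2 also has a pair of transcripts with the same coding region, of 1851 bases, whose starts lie 854 bases apart. Slc6a2-202, the upstream start, held 84.4% and 74.1% of Slc6a2 TPM in the alignment-based tables and 1.49% and 27.1% in the read-based tables. Slc6a2-201 held 15.6% and 25.9%, against 98.5% and 72.9%. The share of the starts therefore depended on the table more than on the library, while the summed level of the gene was 7.95 and 7.80 TPM in the read-based tables.

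For Th the tables agreed on Th-201, which held 99.96% and 100% of alignment-based TPM but 76.2% and 75.2% of read-based TPM. The largest part of the read-based remainder lay on Th-206, at 12.3% and 12.5%, which starts 31106 bases upstream of Th-201 and had 0 alignment-based counts. Th-203 held 7.44% and 8.90% and Th-204 4.06% and 3.33%. Both are annotated as targets of nonsense-mediated decay, with first exons that overlap that of Th-201. Maob-201 likewise held 100% in both alignment-based tables. The read-based tables placed 21.7% and 18.5% on Maob-204, annotated as a target of nonsense-mediated decay, whose first exon overlaps that of Maob-201.

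Slc18a1-201 held 93.7% and 94.0% of alignment-based and 81.4% and 86.9% of read-based Slc18a1 TPM. Slc18a2-201 held 94.8% and 95.8%, against 84.9% and 83.8%, and the rest lay on Slc18a2-202, a model that retains an intron. Dbh-201 and Pnmt-201 each held over 99% of their gene in both tables, and Maoa has a single annotated transcript.

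**Figure D4:**
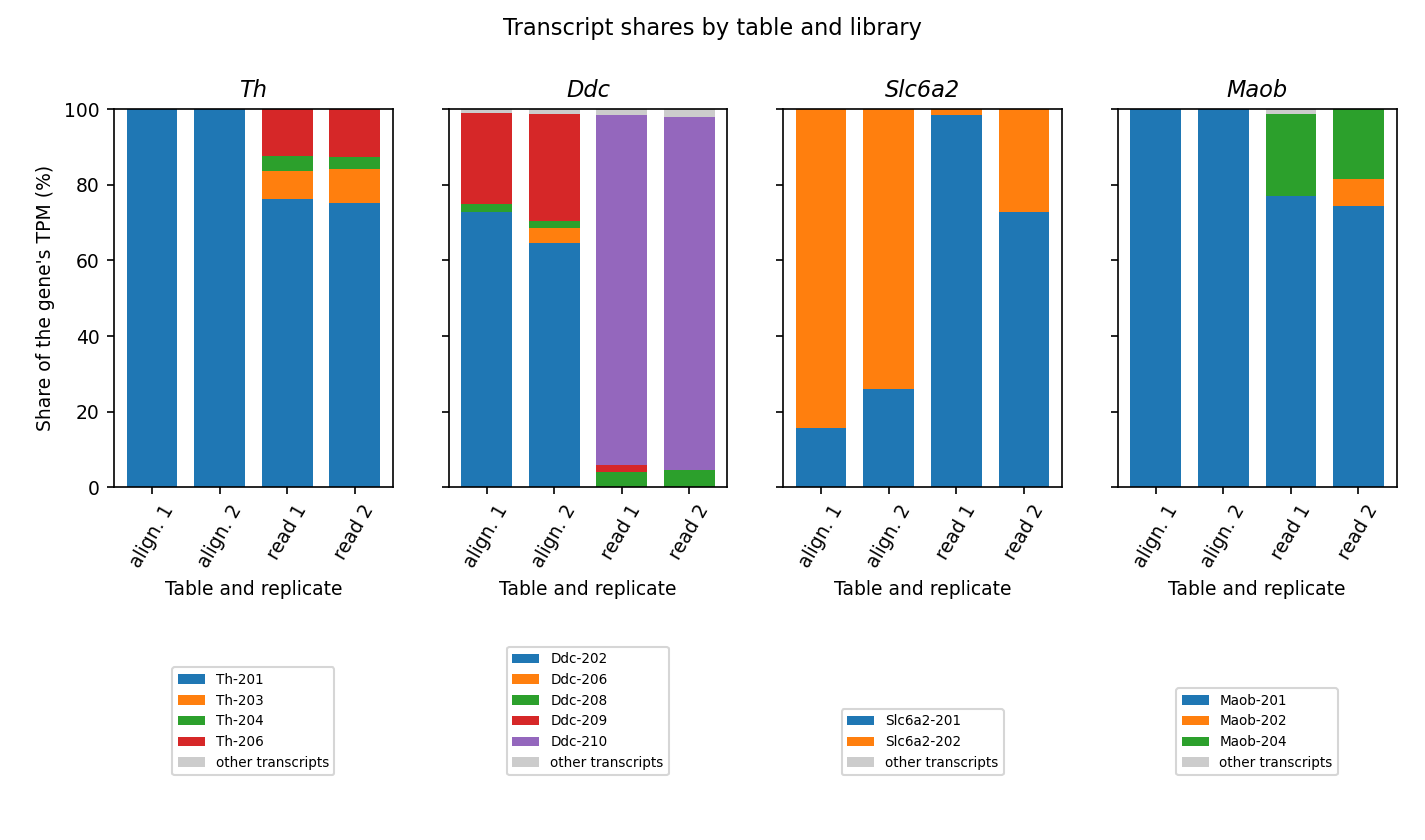
Share of each gene's TPM, in percent, on its annotated transcripts for Th, Ddc, Slc6a2 and Maob; bars are the alignment-based (align.) and read-based (read) tables of replicates 1 and 2, and transcripts under 2% in every table are pooled in grey. Ddc moves from Ddc-202 and Ddc-209 to Ddc-210 between the tables, and Slc6a2 from Slc6a2-202 to Slc6a2-201.

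Summed over transcripts, read-based levels were higher for most genes, with a median log2 ratio to the alignment-based TPM of 0.85 in replicate 1 and 0.93 in replicate 2 over 11892 protein-coding genes. After this median was taken off, 0 of 9 genes lay over 1.5-fold higher in both libraries (all genes 3.3%) and 0 over 1.5-fold lower (1.24%). Ddc was the lowest of the 9, at -0.41 and -0.54, and Maob the highest, at 0.25 and 0.27.

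Of 25 other genes of the pathway, 18 reached 1 TPM in both libraries and 17 had a mean of 100 or more counts. Of these 17, 8 were lower in replicate 2 beyond counting error (all genes 20.3%) and 1 higher (18.5%), with a median log2 ratio of -0.075 (0.0053 with the ratio of TPM). Akr1b3, an aldose reductase, was the higher one at 0.15.

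Tetrahydrobiopterin is the cofactor of Th. Gch1, which starts its synthesis, stood at 22.3 and 23.4 TPM, Spr, which completes it, at 21.7 and 21.7 TPM, and Qdpr, which recycles it, at 40.1 and 37.2 TPM. These levels were of the order of Ddc rather than of Th. Cyb561, which returns electrons to the vesicle for Dbh, stood at 68.4 and 65.3 TPM, and Mat2a, which makes the methyl donor of Pnmt, at 72.6 and 67.1 TPM.

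Of 5 other genes of amine breakdown, 3 were well above Maoa in both libraries and both tables: Aldh2, Akr1a1 and Akr1b3. Aldh2, which oxidises the aldehydes that Maoa and Maob produce, stood at 308 and 322 TPM, 19.6-fold above Maoa in both libraries, and Akr1a1, which reduces aldehydes, at 251 and 246 TPM. Rnls was below Maoa, at 1.13 and 1.23 TPM. Sult1a1, a sulfotransferase, stood next to Maoa at 15.3 and 15.8 TPM, below it in the alignment-based and above it in the read-based tables. Several of these enzymes are also made in many other cell types, and which cells of the gland held them was not measured.

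Among other amine transporters, some were above Slc6a2 and others hardly detected. Slc6a4, the serotonin transporter, stood at 14.5 and 13.0 TPM, 3.14-fold and 3.06-fold above Slc6a2, while the serotonin synthesis genes Tph1 and Tph2 had at most 2 counts in either library. Slc6a3, the dopamine transporter, had 1 and 3 counts and Slc18a3, the acetylcholine vesicle carrier, had 0 counts in both. Of the low-affinity carriers, Slc29a4 stood at 9.27 and 9.37 TPM and Slc22a3 at 3.47 and 2.52 TPM, with a log2 ratio of -0.57 (-0.78 to -0.36). Slc29a4 was thus above Slc6a2 in both libraries.

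**Figure D5:**
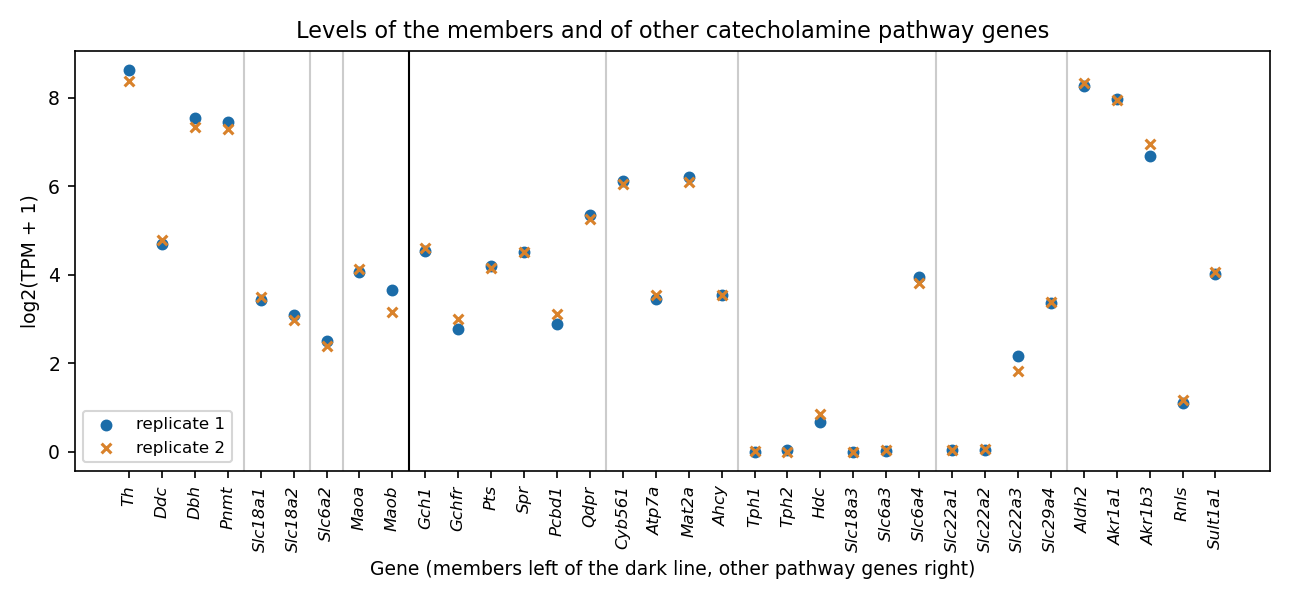
Level of the 9 genes (left of the dark line) and of 25 other pathway genes (right), as log2(alignment-based TPM + 1), for replicate 1 (blue circles) and replicate 2 (orange crosses); light lines separate the lists. Th is the highest of these genes, followed by Aldh2 and Akr1a1, whose order is the reverse in the read-based tables.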

How the data were processed

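Total RNA-seq of 2 adrenal gland libraries of 1 group was analysed. The deposited gene and transcript tables of each library that derive from transcriptome alignments hold expected counts, in which a read can be split among transcripts, and TPM. A further deposited transcript table of each library, derived from the reads and an index and called read-based, holds the authors' estimated counts and TPM. The build was mm10 (GRCm38) with the annotation GENCODE M21, per the deposited file notes. Which aligner and quantifiers made them is not given in the sources used here. Spike-in and transfer RNA rows held 0.904% and 0.885% of the expected counts and stayed out of the gene comparisons. Symbols came from the read-based tables for 55450 of the 55536 genes.

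The 9 genes were taken by symbol, read-based values were summed per gene, and isoform shares were computed from TPM. Library ratios are log2 of expected counts plus 0.5 over library sizes scaled by TMM (edgeR 4.0.16). Intervals are 95% Clopper-Pearson intervals on rounded counts and cover counting error only, as no molecular identifiers mark separate molecules. With 1 library on each side no p-value was computed. DESeq2 1.42.0 size factors served as an alternative. The ratio was tested on simulated data of 12432 genes for replicate 2 over replicate 1: with 200 genes changed 1.5-fold, 95.3% of intervals held the fold put in. The simulated counts held Poisson counting error only, which the intervals assume. The simulation thus checks the calculation and says nothing about the spread between real libraries. Promoter windows cover 250 bases before to 50 after each RefSeq start, and bases upstream of the nearest GENCODE start are printed. The Dbh window lies inside the first exon and is not printed. The genes and lists were chosen with earlier results of these data known. Named are all 9 genes and, from each other list, up to 4 genes of highest mean TPM and any listed gene that a value is set beside. Values of some single pathway genes are not reported here, and those genes were left out of the counts.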

Additional observations from a re-analysis of the deposited data

How the results depend on the processing

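No paired analysis was possible because there is 1 group. Summed TPM of the 9 genes was 774, against 2577 when TPM was rescaled over protein-coding genes, 1571 with read-based TPM and 2603 with read-based TPM so rescaled. Read-based TPM moved Dbh/Th from 0.474 to 0.409, Ddc/Th from 0.0716 to 0.0447, Pnmt/Dbh from 0.954 to 1.13, Slc18a2/Slc18a1 from 0.715 to 0.608, Slc6a2/Slc18a1 from 0.443 to 0.389 and Maoa/Th from 0.0445 to 0.0360. Counts per length of the leading transcript gave 0.0582 for Ddc/Th and 0.907 for Pnmt/Dbh. Leading transcripts over 90% numbered 6, and 3 when read-based. Without centring on the median gene, 8 of the 9 genes were over 1.5-fold apart between tables in both libraries, against 0 with it. The median protein-coding gene was itself past 1.5-fold, at log2 ratios of 0.85 and 0.93, so the 8 says little about these genes. The share of all genes without centring was not computed. Genes over 1.2-fold lower in replicate 2 numbered 4, against 2 with total counts and 1 with the ratio of TPM, and genes over 1.5-fold lower 1, against 0 with either. The other 41 comparisons of a main result with another setting stayed within set limits. Values moved by less than the spread between libraries or stayed in their counting interval, and counts moved by at most 1.5 times. Where the limit was the spread between libraries, a ratio that differed more between them had a wider limit. Read-based Maob/Maoa, at 0.784 against 0.608, thus counted as within limits, while Pnmt/Dbh at 0.907 against 0.954 did not. The tally therefore does not measure stability. Among comparisons of the single values behind the main results, 48 moved past such limits and 60 did not. With 2 libraries, leaving 1 out gives the value of the other and says nothing about stability: Pnmt/Th was 0.440 or 0.464 and Maob/Maoa 0.479 or 0.737. The cause of these shifts was not tested. Depth limits Slc6a2 and Maob most, at 915 and 657 counts in replicate 2.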
